A study of Homo sapiens with 42 samples.

Results

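MV411 is a human acute monocytic leukaemia line. The regions described here were bases covered by a peak interval in all 3 untreated (DMSO) MV411 samples, in stretches of at least 100 bp on chromosomes 1 to 22 and X, with no overlapping interval in any of the 18 DMSO samples of 6 other cancer cell lines. There were 27817 such MV411-only regions, 25.1% of the 110845 stretches that all 3 MV411 DMSO samples shared. The other 83028, called here the shared regions, overlapped an interval of at least 1 other line. For scale, the 21 DMSO lists of the whole series held 1937454 merged intervals. Samples treated with FHT-1015 took no part in the choice.

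The series measured chromatin accessibility by ATAC-seq, in which a transposase cuts and tags open DNA, in 7 lines with wild-type genotype in the labels. Besides MV411 they were the melanoma line A375, the uveal melanoma line 92-1, HCT116 from a colorectal adenocarcinoma, 22RV1 from a prostate adenocarcinoma, DU4475 from an invasive breast carcinoma, and the rhabdomyosarcoma line RD. Each line had 3 samples with DMSO, the solvent, and 3 with FHT-1015, which inhibits both SMARCA4 and SMARCA2, for 4 h. The samples are labelled as biological replicates. Nothing in the labels ties them to separate cultures, so the p-values measure only the spread between these samples. The series' design text lists the other 6 lines and not MV411, whose samples carry labels like the rest. MV411 is the only leukaemia line, so what belongs to leukaemia and what to this line cannot be told apart.

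SMARCA4 (BRG1) and SMARCA2 (BRM) are the alternative ATPases of BAF, the SWI/SNF chromatin remodelling complex, which moves or evicts nucleosomes and keeps many enhancers open. Cell types differ from each other mostly in their distal enhancers, where lineage transcription factors bind, while many promoters are open in every cell type. In myeloid cells, PU.1 (the product of SPI1) binds a GAGGAA core, RUNX1 binds TGTGGT-like sites, and both act with C/EBP factors at genes of monocytes and granulocytes. MV411 carries a fusion of KMT2A (MLL) and an activating internal duplication in FLT3, a receptor kinase of blood progenitors.

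Most MV411-only regions lay far from gene ends, and no genome sequence was used here. The sequences shown are therefore promoter windows, from 250 bases before to 50 after a RefSeq start (GRCh38.p14), that an MV411-only region overlapped. They were chosen after their values were seen, to show blood-cell genes with a peak at the start in untreated MV411 and no called interval there in the other lines' untreated samples. Each runs 5′ to 3′ on the strand of the gene, and the coordinates are those of the window. Capitals mark GAGGAA or its reverse complement TTCCTC, the core that PU.1 and related ETS factors bind, and TGTGGTT or its reverse complement AACCACA, the letters that RUNX factors bind. All windows shown hold GAGGAA or TGTGGTT on either strand. Of the 117 windows of protein-coding genes that an MV411-only region overlapped, 68 did, so those shown do not represent the rest. The window of VNN2, a gene described below, held neither. RGS1 and RGS18 switch off G-protein signals in blood cells, TRAF3IP3 is an adaptor protein of immune cells, CD86 is the costimulatory ligand of antigen-presenting cells, and IL7R is the receptor chain for interleukin 7. BTK is a kinase of B cells and myeloid cells, MS4A4A is a macrophage surface protein, and IL18RAP is a chain of the interleukin 18 receptor.
RGS1, + strand, chr1:192575523-192575822: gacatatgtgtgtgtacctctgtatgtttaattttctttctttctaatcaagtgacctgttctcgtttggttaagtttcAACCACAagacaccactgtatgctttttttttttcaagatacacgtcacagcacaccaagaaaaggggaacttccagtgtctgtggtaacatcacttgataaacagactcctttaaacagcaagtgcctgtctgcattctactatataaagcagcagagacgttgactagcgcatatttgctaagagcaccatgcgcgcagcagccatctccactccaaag
TRAF3IP3, + strand, chr1:209755803-209756102: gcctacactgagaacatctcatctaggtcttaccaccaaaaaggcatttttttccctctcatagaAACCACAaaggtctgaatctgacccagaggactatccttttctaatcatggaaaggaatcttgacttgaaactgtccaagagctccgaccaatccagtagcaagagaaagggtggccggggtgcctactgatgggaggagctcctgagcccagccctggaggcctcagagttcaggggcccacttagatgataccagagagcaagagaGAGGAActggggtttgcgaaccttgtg
RGS18, + strand, chr1:192158212-192158511: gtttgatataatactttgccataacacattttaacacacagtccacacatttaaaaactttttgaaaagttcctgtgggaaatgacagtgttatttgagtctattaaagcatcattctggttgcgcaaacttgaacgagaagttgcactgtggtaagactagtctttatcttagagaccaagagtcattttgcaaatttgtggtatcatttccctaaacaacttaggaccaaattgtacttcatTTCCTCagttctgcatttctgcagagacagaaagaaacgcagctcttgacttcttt
CD86, + strand, chr3:122055112-122055411: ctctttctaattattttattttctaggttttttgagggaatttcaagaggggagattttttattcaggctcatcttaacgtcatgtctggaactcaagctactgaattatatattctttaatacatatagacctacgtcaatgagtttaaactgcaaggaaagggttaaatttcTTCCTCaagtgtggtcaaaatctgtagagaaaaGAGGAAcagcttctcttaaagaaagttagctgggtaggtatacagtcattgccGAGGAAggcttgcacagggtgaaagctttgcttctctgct
IL7R, + strand, chr5:35856641-35856940: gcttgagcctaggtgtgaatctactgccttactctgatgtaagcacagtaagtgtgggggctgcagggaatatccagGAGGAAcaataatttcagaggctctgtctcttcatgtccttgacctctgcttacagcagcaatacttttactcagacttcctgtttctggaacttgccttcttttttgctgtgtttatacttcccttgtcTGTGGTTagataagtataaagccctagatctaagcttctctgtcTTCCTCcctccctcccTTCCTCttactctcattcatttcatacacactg
BTK, - strand, chrX:101386142-101386441: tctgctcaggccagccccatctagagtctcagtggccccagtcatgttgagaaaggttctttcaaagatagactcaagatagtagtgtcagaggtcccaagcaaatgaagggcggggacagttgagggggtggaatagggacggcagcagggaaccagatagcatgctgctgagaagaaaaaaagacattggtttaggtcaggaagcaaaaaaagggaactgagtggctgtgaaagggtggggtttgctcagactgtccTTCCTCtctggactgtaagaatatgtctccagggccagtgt
MS4A4A, + strand, chr11:60280416-60280715: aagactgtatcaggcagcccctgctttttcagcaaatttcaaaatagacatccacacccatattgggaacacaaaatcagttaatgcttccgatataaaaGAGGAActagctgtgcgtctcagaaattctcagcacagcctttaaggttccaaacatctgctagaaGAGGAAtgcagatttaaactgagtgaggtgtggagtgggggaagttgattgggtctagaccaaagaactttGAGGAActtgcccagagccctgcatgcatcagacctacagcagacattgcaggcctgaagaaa
IL18RAP, + strand, chr2:102418399-102418698: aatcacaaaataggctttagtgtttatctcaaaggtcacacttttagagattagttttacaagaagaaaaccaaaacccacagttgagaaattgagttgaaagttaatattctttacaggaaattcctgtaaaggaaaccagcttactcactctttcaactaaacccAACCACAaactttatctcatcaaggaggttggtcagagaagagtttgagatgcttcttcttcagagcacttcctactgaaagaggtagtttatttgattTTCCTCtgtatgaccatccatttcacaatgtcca

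The RGS1 window held AACCACA, the TRAF3IP3 window held both motifs, and the CD86, MS4A4A and IL7R windows each held GAGGAA or its complement in 3 places. Among the 117 protein-coding promoter windows that overlapped an MV411-only region (112 genes), 63 held GAGGAA on either strand, or 53.8%. Of all 22131 protein-coding windows, 27.9% did, and of the 11607 windows in shared MV411 regions 27.1%. The longer PU.1 word GAGGAAGT, which contains GAGGAA, was in 12.8% of the MV411-only windows, 2.63% of all windows and 2.96% of windows in shared regions. TGTGGTT was in 12.8%, 3.70% and 2.83%. These matches are descriptions of letters in a window and not binding sites.

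The MV411-only windows also differed in base composition. Their median GC content was 46.3%, against 62.3% over all windows and 66.3% over windows in shared regions. Their median number of CG dinucleotides was 3, against 21 and 27, so that few looked like CpG island promoters. Among windows with GC content under 50%, which were 64.1% of the MV411-only windows and 19.6% of all, GAGGAA was in 56.0% of 75 and 30.6% of 4328. In the same low-GC windows GAGGAAGT was in 12% and 2.91%, and TGTGGTT in 18.7% and 7.32%. TATAAA was in 21.4% of the MV411-only windows and 9.46% of all, and in 30.7% and 29.0% at low GC. AGATAA, the GATA word, was in 27.4% and 7.88%, and in 34.7% and 22.0% at low GC. TEAD's GGAATG was in 11.1% and 12.2% of windows (12% and 17.3% at low GC), and the E-box CACGTG was in 2.56% and 8.34% (2.67% and 3.33%). TGACTCA (AP-1) was in 7.69% and 4.01% (9.33% and 7.26%), and TGATTTAT (HOX/MEIS) was in 2 of the 117 windows. TTGCGCAA (C/EBP) was in 1 of them. All motifs were searched on both strands.

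The lists are lenient: the weakest MV411-only region had a peak −log10 p of 2.02 in its lowest DMSO sample. The fold and p of a peak are the authors' values. The MV411 lists held 191397 to 279968 peaks with DMSO and 185392 to 197611 with FHT-1015. The read depth of the libraries is unknown. The background pileup recovered from the peaks, which stands in for relative depth, was 0.495, 0.466 and 0.40 with DMSO and 0.267, 0.260 and 0.270 with FHT-1015, so by this stand-in the treated MV411 lists rest on less depth (0.586 of the DMSO mean). The held-out shares and the overall shares called with FHT-1015 are given again from thinned lists. For these, every MV411 peak was thinned at random to the lowest background, 0.260, and kept at −log10 p of at least 5. The shares by strength range, sharing, position, chromosome, promoter and gene list are from unthinned lists, so the lower depth could touch them. Over all 42 lists the background ran from 0.0342 to 2.79, so that an absence from another line's list does not show that its chromatin was closed.

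The MV411-only regions were narrow and mostly weak, with a long strong tail. Their median width was 213 bp (25th to 75th percentile 169 to 261 bp), against 244 bp for shared regions, and they covered 6.18 Mb. The lowest −log10 p over the 3 DMSO samples had a median of 8.50 and a highest value of 214. In shared regions the median was 12.1. Peaks with −log10 q of at least 5, called strict here, stood in all 3 DMSO samples at 16265 of the regions (58.5%). At the edge of the width rule, 314 regions less than 10 bp wider than the least width had a median −log10 p of 4.21, and 246 stretches up to 10 bp narrower than it had 3.91. Just outside the rule on other lines, 17962 stretches were held by exactly 1 of the 18 lists, with a median of 9.69.

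Fewer of these regions were called with FHT-1015 than with DMSO, by a wider margin than for shared regions. To compare treated with untreated samples on equal terms, regions were chosen from 2 DMSO samples and looked up in the DMSO sample left out and in the FHT-1015 sample of the same number. The DMSO samples 1 to 3, left out in turn, held 83.7%, 78.4% and 86.6% of the MV411-only regions chosen from the other 2 (33138, 35343 and 31988 regions). The FHT-1015 samples held 37.7%, 35.3% and 38.8% of the same sets. The groups did not overlap, and the lowest DMSO value was over 2 times the highest FHT-1015 value.

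The mean share was 82.9% ± 4.17 (SD, n = 3) with DMSO and 37.3% ± 1.79 with FHT-1015, a difference of 45.6 percentage points (two-sided exact permutation test, p = 0.1, the smallest that 3 against 3 samples allow). This test is unpaired, although samples of the same number were looked up in the same regions. With the number as a block, a two-sided exact sign-flip test gave p = 0.25, the smallest that 3 pairs allow. Without DMSO sample 1, 2 or 3, where regions were chosen from a single list, the difference was 27.5, 28.9 and 32.2 points, and it was 21.2 among regions with −log10 p of at least 20. Shared regions were held in 89.1%, 86.2% and 90.9% of cases with DMSO and in 62.5%, 61.1% and 64.1% with FHT-1015, a difference of 26.2 points. The MV411-only share minus the shared one was thus −5.83 ± 1.80 points with DMSO and −25.3 ± 0.504 points with FHT-1015. That gap was wider with FHT-1015 by 19.4 points (two-sided exact permutation test, p = 0.1, n = 3 per group). Without DMSO sample 1, 2 or 3 it was wider by 7.74, 7.71 and 10.5 points, and by 12.2 in the regions with −log10 p of at least 20. After thinning, the MV411-only shares were 81.6% ± 2.09 and 41.4% ± 0.407, and the shared ones 88.0% ± 1.33 and 67.1% ± 0.0709. Thinned lists kept only peaks with −log10 p of at least 5, so their like setting is the unthinned lists at that threshold. There the MV411-only difference was 48.9 points and the gap widened by 20.5 points. After thinning the difference was 40.2 points and the widening 19.3 points.

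**Figure D1:**
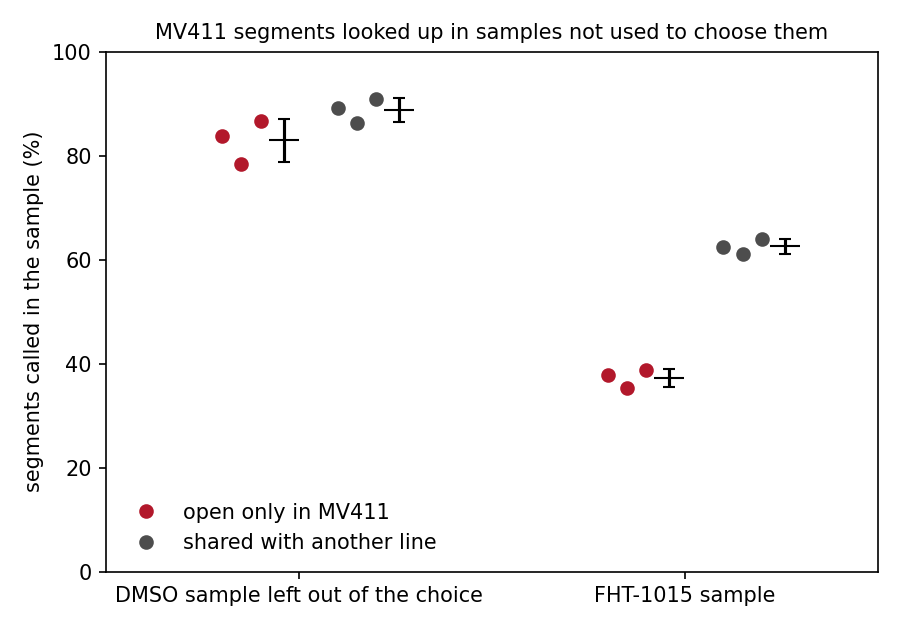
Share of MV411 regions called (vertical axis, %) in each DMSO sample left out of the choice and in the FHT-1015 sample of the same number. Points are samples, bars the mean ± SD of 3. The FHT-1015 points of MV411-only regions sit at 35.3% to 38.8%, below those of shared regions at 61.1% to 64.1%.

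For the regions chosen from all 3 DMSO samples, the FHT-1015 samples held 43.1%, 42.1% and 43.0% (mean 42.8% ± 0.577, n = 3). They held 67.8%, 67.4% and 68.0% of the shared regions (67.8% ± 0.303). In 9568 MV411-only regions (34.4%) no FHT-1015 sample had a peak, against a background of 20.8% over all 110845 MV411 stretches and 16.2% of shared regions. All 3 FHT-1015 samples had a peak in 6349 MV411-only regions (22.8%) and in 51.8% of shared regions. With strict peaks only, 53.0% of the MV411-only regions were called in no FHT-1015 sample, against 33.6% of all strict stretches. With both thresholds the MV411-only share was above that of all MV411 stretches. In thinned lists the FHT-1015 samples held 47.2% ± 0.788 of 15470 MV411-only regions and 71.6% ± 0.451 of 55987 shared ones. No FHT-1015 sample had a peak in 31.0% of these MV411-only and 14.5% of these shared regions.

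The share called with FHT-1015 was higher for regions that were stronger in DMSO, and it was lower for MV411-only than for shared regions at each strength below 100. Where the lowest DMSO −log10 p was 2 to 5, the FHT-1015 samples held 21.1%, 19.5% and 19.9% of the MV411-only regions and 37.2%, 37.1% and 37.4% of the shared ones. At 10 to 20 they held 51.4%, 50.1% and 51.2% of 6416 MV411-only regions and 71.4%, 70.8% and 72.1% of 19837 shared ones. At 30 to 50 the means were 85.9% ± 0.261 and 93.6% ± 0.0717. The 179 MV411-only regions at 100 or more were called in every FHT-1015 sample. Weighting the shared regions to the strengths of the MV411-only ones left a gap that widened by 15.5 points with FHT-1015 in the comparison with samples left out (16.7 points when also thinned).

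**Figure D2:**
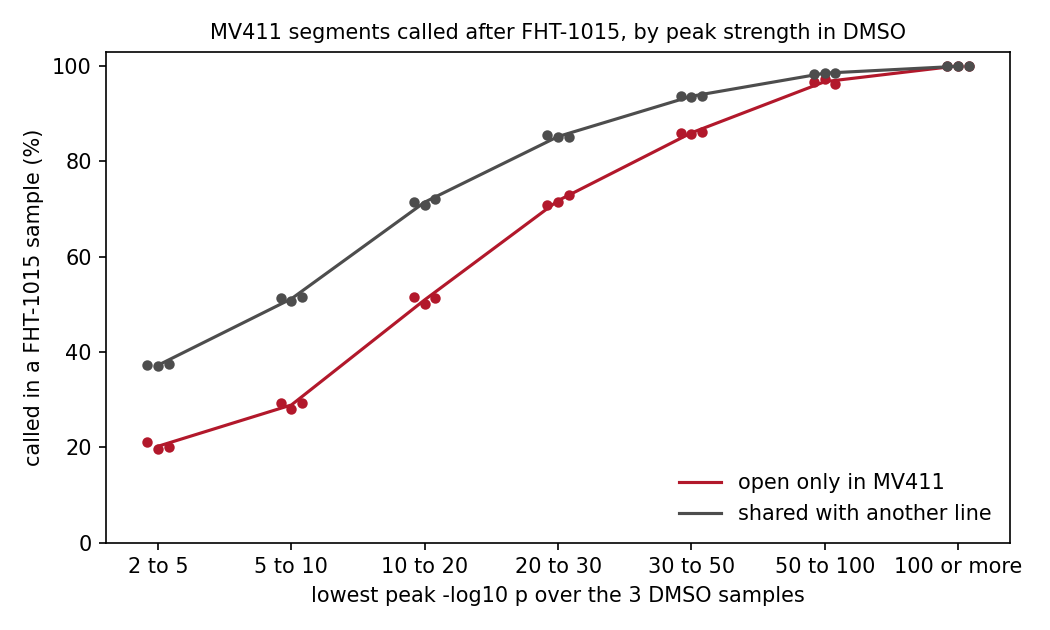
Share of MV411 regions with a peak after FHT-1015 (vertical axis, %) by the lowest −log10 p of the region over the 3 DMSO samples (horizontal axis, 7 ranges). Points are the 3 FHT-1015 samples and lines their mean. The MV411-only line runs from 20.2% to 100% and lies below the shared line at every range under 100.

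The number of other DMSO lists that held a region ordered the FHT-1015 share, with the MV411-only regions at the low end. The share in FHT-1015 samples was 42.8% with 0 other lists, 48.2% with 1, 56.6% with 2 to 5, 75.4% with 6 to 11, 90.5% with 12 to 17 and 99.2% with all 18. Widely shared regions were stronger and nearer to genes: 77.6% of those in all 18 lists lay within 1 kb of the end of a protein-coding gene, against 2.13% of the MV411-only ones. Among regions with a lowest −log10 p of 10 to 20 that lay over 5 kb from any gene end, the shares were 50.7% ± 0.815 (5639 MV411-only regions), 52.7%, 59.7%, 79.8%, 92.9% and 97.6% (218 regions in all 18 lists). At equal strength and away from genes, MV411-only regions thus differed little from those with 1 other list and much from those with 6 or more.

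**Figure D3:**
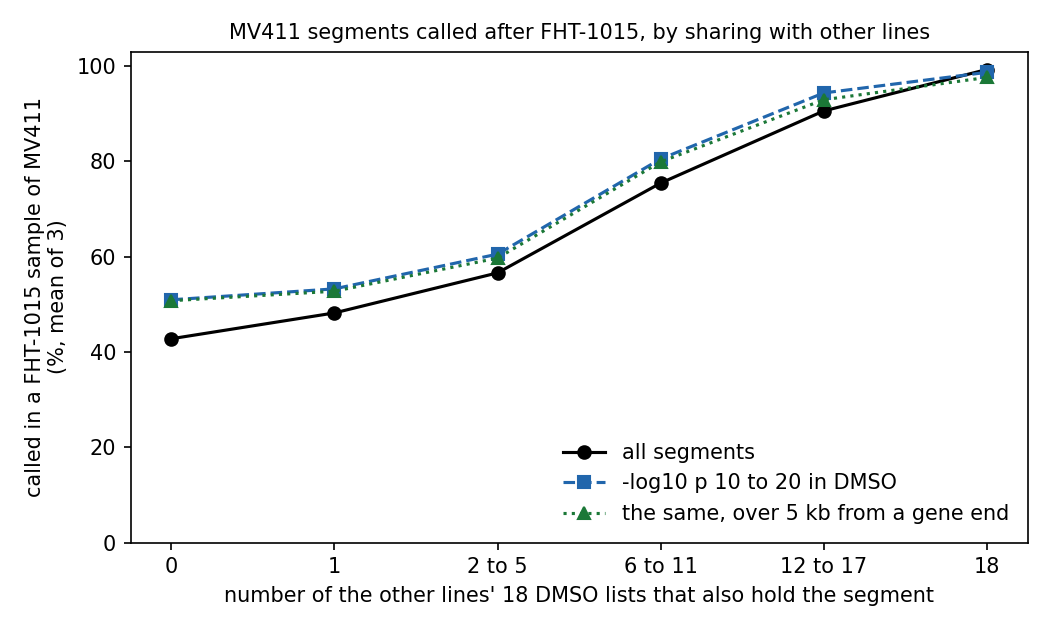
Mean share of MV411 regions with a peak in a FHT-1015 sample (vertical axis, %, mean of 3) by the number of the other lines' 18 DMSO lists that also hold the region (horizontal axis). The MV411-only regions are the points at 0, at 42.8% overall and 50.9% at −log10 p of 10 to 20.

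The same choice made for each other line gave fewer regions: 8122 in 22RV1, 4910 in 92-1, 3442 in DU4475, 3331 in A375, 2817 in RD and 255 in HCT116. Their lists differ in depth and peak width, so the numbers say little about the lines. MV411 had the highest share of its own regions found again in a DMSO sample left out, 82.9%, and 92-1 and HCT116 the lowest, 37.5% ± 4.53 and 18.4% ± 6.74. The difference between DMSO and FHT-1015 was 45.6 points in MV411, 39.1 in 22RV1, 29.5 in RD, 28.7 in A375, 27.4 in 92-1, 12.8 in DU4475 and 5.14 in HCT116. As a share of the DMSO value, however, the FHT-1015 value in MV411 was 45.0%, between 42.6% in RD and 56.0% in A375, and above 27.0% in 92-1 and 37.9% in 22RV1. In DU4475 and HCT116 it was 75.2% and 72.0%. Shared regions differed by 26.2 points in MV411, 18.2 in 22RV1, 23.6 in RD, 15.8 in A375, 34.0 in 92-1, 7.05 in DU4475 and 5.17 in HCT116. The gap between a line's own and its shared regions was thus wider with FHT-1015 by 20.9 points in 22RV1, 19.4 in MV411, 12.9 in A375, 5.91 in RD and 5.76 in DU4475, and changed by −6.57 in 92-1 and −0.0289 in HCT116. Two-sided exact permutation tests of a line's own regions with DMSO against FHT-1015 gave p = 0.1 in 5 lines, 0.2 in A375 and 0.3 in HCT116 (n = 3 per group, adjusted over 7 lines 0.14, 0.233 and 0.3). Differences between the lines were not tested. These values come from lists that were not thinned, and the background shifted differently with treatment. It was lower in every FHT-1015 sample than in any DMSO sample in MV411. In 22RV1 it was higher, at 0.768 to 1.02 with FHT-1015 against 0.532 to 0.702 with DMSO. After thinning, the MV411 difference was 40.2 points, and the other lines were not thinned. Whether the order of the lines holds at equal depth was not tested.

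**Figure D4:**
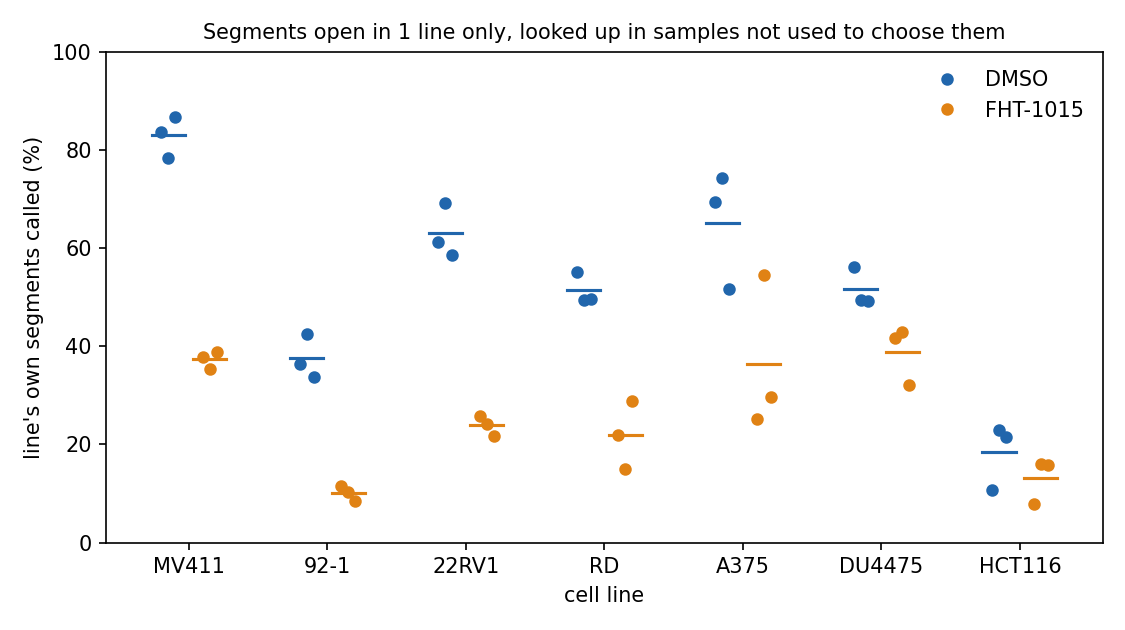
Share of each line's own regions called (vertical axis, %) in samples not used to choose them, for 7 lines (horizontal axis). Points are 3 DMSO and 3 FHT-1015 samples per line and short bars their means; in MV411 the means are 82.9% and 37.3%.

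Few MV411-only regions lay near the ends of protein-coding genes, counting the start and the far end of each gene alike. There were 592 within 1 kb (2.13%), against 16.4% of shared regions. The median distance to a gene end was 52.4 kb and 27.3 kb. Among regions with −log10 p of at least 50 the contrast was wider: 1.62% of 1171 MV411-only regions and 35.0% of 8998 shared regions lay within 1 kb, with median distances of 84.5 and 15.2 kb. The share inside a gene body was alike, 47.1% and 46.4%. Near and far regions were close in the share called after treatment: the FHT-1015 samples held 43.8%, 44.1% and 48.5% of the 592 regions near gene ends and 43.1%, 42.0% and 42.9% of the others (means 45.4% ± 2.64 and 42.7% ± 0.571).

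By chromosome, MV411-only regions were the smallest share of MV411 stretches on the gene-rich chromosome 19 (220 of 2271, 9.69%) and the largest on X (1359 of 3588, 37.9%). Chromosomes 13 and 4 followed with 31.8% and 30.8%. The share called with FHT-1015 lay between 39.8% ± 0.450 on X and 50.5% ± 1.64 on 19. X thus had the highest share of MV411-only regions and the lowest share called after FHT-1015. Other chromosomes did not follow that order. On 13, 45.6% ± 1.08 were called, and on 11, where 24.3% of stretches were MV411-only, 40.1% ± 0.675.

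Promoters were rare among the regions. Of the 25996 not on chromosome 8, for which no windows were used, 195 (0.750%) overlapped a promoter window of a protein-coding gene or long noncoding RNA, against 13.9% of shared regions. The 111 regions at protein-coding starts were called in 55.0%, 51.4% and 55.0% of cases with FHT-1015 (53.8% ± 2.08), above the 42.8% over all MV411-only regions. Of these 111, 31 (27.9%) were called in no FHT-1015 sample and 38 (34.2%) in all 3, against 34.4% and 22.8% of all MV411-only regions.

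The pileup at a summit, the number of reads or fragments stacked there, could be recovered for every MV411 peak, and it is not scaled for depth. The scaled pileup is the same value divided by the background of its own list, a scaling chosen after the values were seen. Regions named below for their strength were chosen by DMSO values with no DMSO sample left out, which favours lower FHT-1015 values. Promoter genes were chosen after their values were seen. At the RGS1 start the unscaled pileup was 135, 125 and 94 in DMSO samples 1 to 3 and 16, 28 and 23 with FHT-1015. At the TRAF3IP3 start it was 137, 155 and 106, and 48, 37 and 39. At the start of RGS18, a neighbour of RGS1 on chromosome 1, it was 69, 72 and 68, and 67, 57 and 44. At RGS1 and TRAF3IP3 the FHT-1015 values were below the DMSO ones in every sample, also when scaled. At RGS18 the scaled pileups were 139, 155 and 170 with DMSO and 251, 219 and 163 with FHT-1015, so the groups overlapped and their order turned, with a ratio of means of 1.36.

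VNN2 encodes a pantetheinase anchored on the surface of neutrophils and monocytes. Its start had pileups of 73, 58 and 69 with DMSO and 8, 16 and 11 with FHT-1015. The CD86 start had 44, 23 and 24, and 10, 10 and 6. The BTK start had 67, 61 and 25, and 24, 22 and 26, so there the groups overlapped, scaled or not, and DMSO sample 3 was low. IL7R had 20, 24 and 24, and 7, 2 and 6. The macrophage genes MS4A4A (28, 15 and 17, then 2, 4 and 5) and MS4A7 (32, 14 and 26, then 5, 10 and 6) were called in all 6 samples with lower FHT-1015 pileups, though the scaled groups overlapped at MS4A7. IL18RAP (19, 16 and 18 with DMSO) and CLEC12A, an inhibitory lectin of myeloid cells and a leukaemia surface marker (14, 5 and 6), had no peak in any FHT-1015 sample. Scaled, VNN2, CD86 and IL7R stayed lower with FHT-1015 in every sample, with ratios of means of 0.297, 0.495 and 0.369.

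Few genes of the lists had a promoter window in an MV411-only region. They were 3 of 23 myelomonocytic surface and granule genes with a window (CD86, CLEC12A and FCGR2A, an IgG receptor), 2 of 17 general leukocyte genes (BTK and LCP1, an actin-bundling protein) and 2 of 15 lymphoid genes (IL7R and EBF1, a B-cell transcription factor). None of 19 blood transcription factors, 15 genes of the MLL-fusion programme, 9 erythroid and megakaryocyte genes and 16 lineage genes of the other lines had one. Over all 15811 protein-coding genes with a window, 0.708% did.

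Around genes, the MV411-only regions reached nearly every myeloid locus, but they reached most other loci as well. Of 73 genes in the lists of blood transcription factors, the MLL-fusion programme and myelomonocytic genes, 65 (89.0%) had a region inside or within 100 kb, as did 78.1% of all 19970 protein-coding genes. Within 20 kb it was 50 genes (68.5%), against 46.8% of all. Per MV411 stretch in the loci, MV411-only regions were 21.2% in the 3 lists and 23.3% over all genes, so the myeloid loci were not richer in them than others by this measure. The FHT-1015 samples held 47.4%, 49.2% and 48.1% of the 266 regions in the 3 lists together. Over the loci of all genes they held 43.5%, 42.5% and 43.5%.

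Blood transcription factors had regions at 23 of 25 genes (92.0%, against 78.1% of all protein-coding genes). Most were at IKZF1 (11), FLI1 (10), ZEB2 (9) and CBFA2T3 (7), with 6 each at RUNX1 and TFEC, and CEBPE and LYL1 had none. IKZF1 (Ikaros) and FLI1, an ETS factor, act in many blood lineages. The strongest region, inside FLI1, had pileups of 107, 90 and 68 with DMSO and 41, 57 and 53 with FHT-1015. The region 11.6 kb from IKZF1 had 51, 48 and 49, and 14, 10 and 18. A region 12.7 kb from SPI1, the gene of PU.1, had 60, 50 and 47, and 9, 13 and 6. At IKZF1 and SPI1 the FHT-1015 values were lower in every sample, also when scaled (ratios of means 0.479 and 0.306). At FLI1 the scaled pileups were 216, 193 and 170 with DMSO and 153, 219 and 196 with FHT-1015, which overlapped. Of the 97 regions in the list's loci the FHT-1015 samples held 49.5% ± 1.03, and 26 (26.8%) were called in none of them, against 33.9% over the loci of all genes.

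The MLL-fusion programme, genes that KMT2A fusions are known to bind or keep active, had regions at all 16 genes. These genes are long, with a median of 208 kb against 24.2 kb over all protein-coding genes, of which 78.1% had a region. MV411-only regions were 26.1% of the MV411 stretches in the list's loci, against 23.3% over all genes. ARID1B and JMJD1C had 12 each, BCL2 and MBNL1 10 each, RUNX2 9 and CDK6 7. ARID1B is itself a subunit of BAF, and BCL2 blocks apoptosis. A region inside FLT3 had pileups of 84, 83 and 78 with DMSO and 41, 52 and 35 with FHT-1015. One inside MEIS1, the cofactor of HOXA9, had 33, 52 and 48, and 19, 13 and 9. Scaled, the groups overlapped at both, with ratios of means of 0.889 at FLT3 and 0.518 at MEIS1. HOXA7, HOXA9 and HOXA10 share 3 regions, since their loci overlap. The FHT-1015 samples held 42.1% ± 1.68 of the 91 regions of the list, close to the value for all genes.

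Myelomonocytic surface and granule genes had regions at 26 of 32 loci (81.25%, against 78.1% of all protein-coding genes). Of the 78 regions in all, the FHT-1015 samples held 53.8%, 56.4% and 51.3%. That was the highest mean of the lists (53.8% ± 2.56). The region inside CSF1R, the receptor for macrophage colony-stimulating factor, had pileups of 109, 88 and 94 with DMSO and 61, 62 and 67 with FHT-1015. A region inside KIT, the stem cell factor receptor, had 72, 57 and 68, and 11, 24 and 19. One 0.857 kb from TLR4, the receptor for bacterial lipopolysaccharide, had 60, 51 and 48, and 14, 9 and 11. At KIT and TLR4 the values were lower with FHT-1015 in every sample, also when scaled (ratios of means 0.465 and 0.364). At CSF1R the scaled pileups were 220, 189 and 235 with DMSO and 228, 239 and 248 with FHT-1015, so they overlapped. The 6 genes with none were AZU1, ELANE, PRTN3, S100A9, TYROBP and FCGR1A, of which the first 3 encode neutrophil granule proteases or a relative of them.

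Of 25 general leukocyte genes 22 had regions (88.0%, against 78.1% of all protein-coding genes). Most were at DOCK2 (12), BTK (8), INPP5D and LCP1 (7 each), LYN (6) and LCP2 (4). DOCK2 activates Rac in leukocytes, and INPP5D is the lipid phosphatase SHIP1. The region inside LCP2, an adaptor of immune receptors, had pileups of 150, 135 and 101 with DMSO and 76, 69 and 67 with FHT-1015, and the scaled groups overlapped (ratio of means 0.943). Lymphoid genes had regions at 16 of 20 loci (80.0%, near the share of all genes), with 10 at EBF1, 6 at GATA3 and 5 each at BLK and CD3E. Erythroid and megakaryocyte genes had them at 14 of 18 (77.8%, also near that share), with 7 at ANK1 and 4 at ALAS2. The FHT-1015 samples held 35.5%, 35.5% and 32.3% of their 31 regions, the lowest mean of the lists.

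Genes that mark the other lines had MV411-only regions nearby about as often as genes in general. They had them at 25 of 33 loci (75.8%, against 78.1% of all protein-coding genes), with 10 at MITF and 7 at LGR5. MITF, the melanocyte factor, is also used in cells of the macrophage lineage. The strongest lay 3.92 kb from TYRP1, a pigment enzyme, with pileups of 93, 91 and 93 with DMSO and 20, 9 and 11 with FHT-1015 (ratio of scaled means 0.244). No sample of the melanoma lines 92-1 and A375 had a DMSO peak there, by the rule. ELF3, KLK2, KLK3, KRT8, KRT18, MYOG, PMEL and SOX10 had none. The FHT-1015 samples held 45.3%, 32.6% and 43.0% of the 86 regions of the list.

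**Figure D5:**
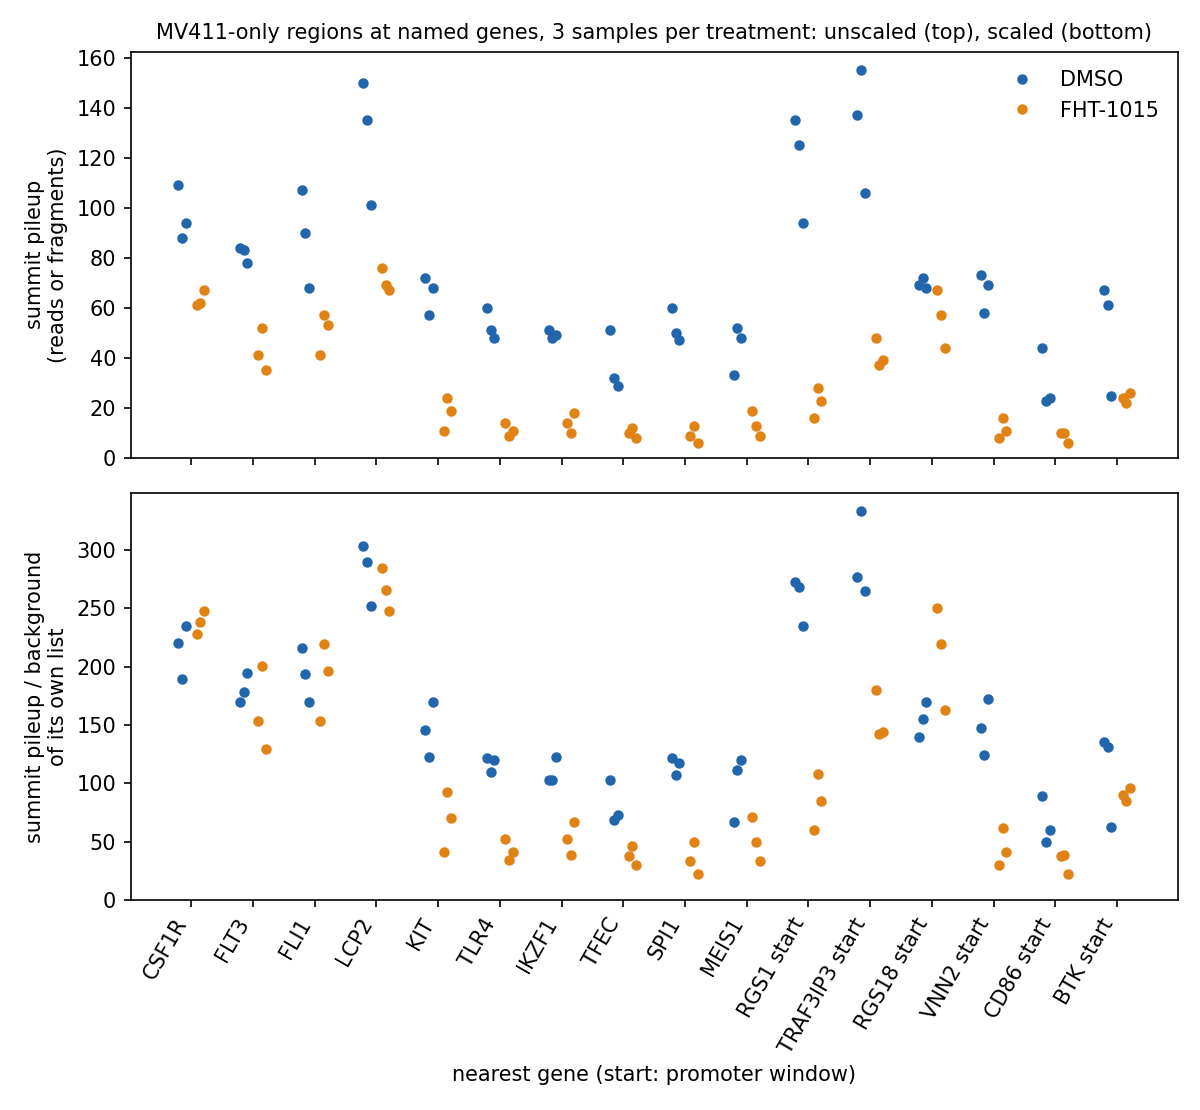
Summit pileup of MV411-only regions at 16 named genes (horizontal axis) in 3 DMSO and 3 FHT-1015 samples, as recovered (top, reads or fragments) and divided by the background of its own list (bottom). Unscaled, FHT-1015 lies below DMSO in every sample at 15 genes. Scaled, it does at 9, and at the other 7, CSF1R and RGS18 among them, the groups overlap. The genes were chosen after their values were seen, and no such count was made over all MV411-only regions.

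Of the 20 MV411-only regions with the highest lowest −log10 p (162 to 214), 8 lay inside a gene and 8 over 100 kb from any, and 6 were on chromosome 8. Of all 27817 MV411-only regions, 47.1% lay inside a gene and 1821 were on chromosome 8. The share over 100 kb from any gene was not computed. All 20 were called in every FHT-1015 sample, while in 18 each FHT-1015 −log10 p was below each DMSO one. The 20 were chosen by their DMSO values with no DMSO sample left out, and that choice in itself favours lower FHT-1015 values. Their pileups were 131 to 232 with DMSO and 15 to 187 with FHT-1015. The pileups were lower with FHT-1015 in every sample at 19 of them. Scaled by background they were lower at 10, overlapped at 7 and were higher at 3, the regions at PALLD, COL12A1 and ADAM2. No such count was made over all MV411-only regions, so it describes these regions only.

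The regions inside CA1, a carbonic anhydrase of red cells, and CLDN10, a tight junction protein, led the order. CA1 had pileups of 176, 173 and 161 with DMSO and 76, 71 and 81 with FHT-1015. The region at CLDN10 had 188, 196 and 194, and 99, 92 and 112. Scaled, CA1 stayed lower with FHT-1015 in every sample (ratio of means 0.759), and at CLDN10 the groups overlapped (0.886). The nearest genes of others included STMN2 (288.0 kb away), EDEM1 (437 kb), EPHA3 (48.2 kb), CHRM3 (inside), NLGN1 (36.9 kb), CSMD3 (391 kb), COL12A1, NR2F2, SGCZ, INPP4B, EFNB2, OXR1, HNMT and ADAM2, and NKAIN2 held 2. The nearest gene is a position and not a target.

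The 20 regions differed widely in how far their pileups lay apart between treatments. The region near CSMD3 had pileups of 165, 150 and 137 with DMSO and 49, 24 and 15 with FHT-1015, and the one near HNMT had 149, 134 and 148, and 18, 26 and 22. The one inside PALLD, an actin-associated protein, had 206, 198 and 177, and 155, 187 and 148, which scaled were 416, 425 and 442 with DMSO and 580, 720 and 547 with FHT-1015. Scaled, the regions near CSMD3 and HNMT stayed lower in every FHT-1015 sample, with ratios of means of 0.332 and 0.259. The 10 strongest regions called in all FHT-1015 samples were the first 10 of the 20.

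The strongest regions called in no FHT-1015 sample reached a lowest −log10 p of 67.9. That one lay 4.71 kb from MAP3K4, a kinase of the stress-activated pathways, with DMSO pileups of 89, 85 and 73 and no peak with FHT-1015. A region inside GPC5, a glypican, had 47, 44 and 46, and one 751 kb from IPMK had 45, 39 and 60. The others of the 10 lay inside ATP10B, FAM135B, LCT (lactase), DDX60L and PDE3B, 328 kb from MCPH1 and 203 kb from SLC39A10, with lowest −log10 p between 41.1 and 48.5. In the ATP10B region 5 FHT-1015 samples of other lines had a peak. Of the other 9 regions, 8 had none and the one inside FAM135B had 1.

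The genes with the most MV411-only regions inside or within 100 kb were all long. FHIT had 35, CSMD1 34, DMD 32, PTPRD 31, LRP1B and MACROD2 28 each, ROBO2 26, CNTNAP2 24, MARCHF1 23 and NAALADL2 22. Per 100 kb this was between 0.958 at CNTNAP2 and 2.17 at MARCHF1, while the median over all protein-coding genes was 0.772. MARCHF1, a ubiquitin ligase that removes MHC class II and CD86 from the surface of antigen-presenting cells, was the shortest of the 10 and also had an MV411-only region over 1 of its starts, with pileups of 87, 60 and 85 with DMSO and 45, 51 and 61 with FHT-1015, which overlapped. Of the 283 regions counted at the 10 genes, 108 (38.2%) were called in no FHT-1015 sample, against 34.4% of all MV411-only regions.

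MIR223, the gene of a microRNA typical of granulocytes and monocytes, was looked up after the data had been seen. Of 8 MV411 stretches within 20 kb of its hairpin on X, 4 were MV411-only. In the strongest, 6.55 kb away, the −log10 p was 30.7, 38.4 and 38.9 with DMSO and 46.9, 15.6 and 21 with FHT-1015. In the one 3.50 kb away it was 29.3, 13.5 and 11.5, and 23.1, 39.3 and 28.5. Both were called in all 6 samples, and the values of the treatments overlapped.

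Each FHT-1015 sample of the other lines held 1.29% to 5.86% of the MV411-only regions. Of the 27817, 17988 (64.7%) had no peak in any of the other lines' 18 FHT-1015 lists, 74 had one in 5 or more, and the most was 9. Of the 83028 shared regions, 17.5% had no peak there and 34913 had one in 5 or more. The rule itself favours low counts, since it took regions without a DMSO interval in these lines. Because it set the DMSO share of the MV411-only regions to 0, each line's DMSO samples were also left out of the choice in turn and looked up. The share of such regions with a peak was then 8.03% ± 0.887 with DMSO and 3.73% ± 1.29 with FHT-1015 in 92-1, and 4.68% ± 0.606 and 3.21% ± 0.562 in RD. In A375 it was 4.47% ± 0.853 and 3.11% ± 0.814 (in these 3 lines, two-sided exact permutation test, p = 0.1, adjusted over 6 lines 0.2, n = 3). It was 5.49% ± 0.913 and 5.61% ± 1.35 in 22RV1, 3.90% ± 0.331 and 4.09% ± 0.917 in DU4475, and 3.71% ± 1.58 and 3.37% ± 2.23 in HCT116 (exact p = 1.0, 0.8 and 0.9). In no line was the share higher with FHT-1015 by more than the spread between its samples. These lists were not thinned. In 92-1, where the shares lay farthest apart, the lists held 355876 to 431956 peaks with DMSO and only 179390 to 286272 with FHT-1015. Its background was 0.0839 to 0.430 with DMSO and 0.0342 to 0.299 with FHT-1015. How much overlap random positions would give was not computed.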

How the data were processed

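ATAC-seq peak lists of 42 samples were used, each a list of its own without pooling. Bowtie2, Picard, MACS2, limma and HOMER and the build hg38 are named in the submitters' processing notes, with no versions. Library DNA was size-selected with beads on both sides, per the labels' protocols. The deposited lists give a fold (a ratio of pileup to background) and a −log10 p and −log10 q per peak, and a score that was not used here; all are the authors' values. Peaks were called by the authors at a lenient threshold, judging by the deposited −log10 p values.

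The steps computed here used Python 3.11.15, numpy 2.4.6, scipy 1.17.1 and pandas 2.3.3. Intervals were intersected in all 3 DMSO lists, and stretches of at least 100 bp were kept; an overlap of 1 base counted as a call. Strict peaks had −log10 q of at least 5. The whole-number pileup was recovered from fold and p within 0.01 of −log10 p for 100% of peaks in every list, and thinned binomially to the lowest MV411 background, keeping −log10 p of at least 5. Pileups of named regions were also divided by the background of their own list. Held-out shares were compared over samples by unpaired exact permutation tests, although same-numbered samples of a line were looked up in the same regions. The choice of regions, the recovery and the held-out shares were tested on simulated data. RefSeq genes (GRCh38.p14, 19970 protein-coding genes) gave distances to gene ends, since the table has no strand or exons, and the distance is from the middle of a region. Coordinates count from 1.

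Genes are named by these rules: the 20 regions with the highest lowest −log10 p over the DMSO samples, 10 such called in all and in no FHT-1015 sample, the 10 genes with the most regions, up to 6 genes per list and those with none; some are not reported here. Promoter genes, motif windows, MIR223 and the figure's genes were chosen after their values were seen. The regions and lists were chosen with earlier results of these data known. The planned motif search in the regions themselves was replaced by promoter windows, since no genome sequence was used here.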

Additional observations from a re-analysis of the deposited data

How the results depend on the processing

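The number of MV411-only regions, 27817, depends on the rule: it was 28617 at a least width of 50 bp, 16014 at 200 bp, 16265 with strict MV411 peaks, 66746 when only strict peaks of the other lines excluded a region, 17988 when the other lines' FHT-1015 lists excluded too, and 11564 with no interval within 500 bp. Leaving out each DMSO sample gave 31988 to 35343. The mean FHT-1015 share of 42.8% was 42.0% at 50 bp, 57.7% at 200 bp, 41.1% with at least 100 bp covered and 31.0% with strict peaks, and 42.6% to 43.1% without each FHT-1015 sample. The held-out difference of 45.6 points lay between 21.2 (regions at −log10 p of at least 20) and 58.0 (strict peaks) and never changed direction. Leaving out samples gave 27.5 to 46.4 points, the values of 27.5 to 32.3 being those without any 1 of the 3 DMSO samples, where regions came from 1 list only. The widening of the gap, 19.4 points, was 22.6 with strict peaks, 12.2 at −log10 p of at least 20, 20.5 unthinned at −log10 p of at least 5, and 7.71 to 19.7 without single samples, again lowest (7.71, 7.74 and 10.5) without a DMSO sample. The share near gene ends, 2.13%, was 11.3% within 5 kb, 1.93% with strict peaks, 1.76% in the strongest 10% and 0.750% for promoter windows. Myeloid loci numbered 65, 50 within 20 kb and 52 with strict peaks. The settings with −log10 p of at least 20, the unthinned threshold, thinning together with strength weights, division by background and promoter windows were chosen after seeing the data.

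With the replicate number as a block, the held-out difference stayed 45.6 points and the gap 19.4 points, with two-sided exact sign-flip p = 0.25, the smallest that 3 pairs allow. Over merged MV411 regions, the deviations of same-numbered samples correlated at 0.00274, −0.00278 and −0.00347. The held-out shares of a number were still paired, since both samples were looked up in the same regions. The unpaired tests leave that pairing out. No test of 3 against 3 samples can pass 0.05 here, so no call was gained or lost under any setting. Of the 16 genes plotted, 15 had lower pileups in every FHT-1015 sample and 9 had after division by background. Of the 20 strongest regions it was 19 and 10. No such count was made over all MV411-only regions, and the choice of these regions by DMSO values or after their values were seen favours lower FHT-1015 values. Read depth is unknown, and weak regions, most of them here, limit what the FHT-1015 shares can show.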
